A study of Mus musculus with 6 samples.

Results

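Genes for proteins of the milk fat globule and of the secretions of mammary alveolar cells were followed as a set of 10: Btn1a1, Xdh, Plin2, Mfge8, Muc1, Muc15, Fabp3, Olah, Cel and Lpo. They were chosen by name, as all gene probes whose transcript accession belongs to 1 of these genes, which gave 11 probes (2 for Fabp3, 1 for each other gene) of 55681 on the array and 10 of 20145 genes with a matched probe. All 11 probes were well above background on all 6 arrays, so none of the 10 genes was lost to the filter on dim probes. The study compared 3 samples of primary mammary epithelial cells wild type for Plk2 (Plk2 +/+) with 3 samples null for it (Plk2 -/-). Plk2 encodes a polo-like serine/threonine kinase. All 6 samples came from females of 129sv/C57Bl6 strain at 8 weeks of age, whose glands were dissociated into cells, and each sample was read on its own 1-colour Agilent array. The labels give no pregnancy or lactation state, do not describe the deleted part of Plk2 and do not say whether each sample came from 1 animal, so the spread between samples may in part be technical. The p-values measure that spread only.

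Milk lipid leaves the alveolar cell by a route of its own. Triglyceride gathers in cytoplasmic droplets coated by perilipin 2 (Plin2), which move to the apical surface and bud off wrapped in plasma membrane. Butyrophilin (Btn1a1) and xanthine oxidoreductase (Xdh) bind each other at that surface, and lactadherin (Mfge8) and the mucins Muc1 and Muc15 sit on the membrane that surrounds the secreted globule. Fabp3 carries fatty acids inside the cell, and Olah is the thioesterase that releases medium-chain fatty acids from fatty acid synthase. Cel, the bile salt-stimulated lipase, and Lpo, lactoperoxidase, are secreted enzymes of milk.

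Levels are log2 processed signals minus the 75th percentile of the gene spots on the same array, so 0 is the brightness at that percentile and 1 unit is a doubling. Differences are null minus wild type on that scale, each with its standard error (SE) from limma, and an adjusted p is Benjamini-Hochberg corrected over all 24609 entries tested (1 probe for each named gene, plus probes with no gene name). Of the 10 genes 0 passed an adjusted p of 0.05 in limma, where 139 of all entries did (0.565%; 56 higher, 0.228%, and 83 lower, 0.337%). At an unadjusted p under 0.05, 4 of the 10 genes were higher in null samples (Fabp3, Muc15, Cel and Plin2) and 0 were lower, beside 23% of all entries (13.5% higher and 9.54% lower). In the same 4 genes every null sample lay above every wild-type sample, which 19.6% of all entries did (31.6% with no overlap in either direction, 12% lower). The difference was positive in 9 of the 10 genes, and in 52.9% of all entries. The median difference over the 10 genes was 0.66, and that over all entries was 0.03.

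Among the 6 arrays, null sample 3 stood apart along the second component of a principal component analysis, which held 23.5% of the variance, at 74.0, the others lying between -26.5 and 2.88. The difference of each of the 10 genes is therefore also given without it. Without null sample 3 the number of entries past the adjusted threshold was 704 rather than 139, and without any other sample it was 7 to 46. Probes well above background made up 50.2% to 52.2% of all probes on the wild-type arrays and 51.2% to 54.7% on the null arrays. Both genotypes shared 1 slide, wild type in its row 1 and null in its row 2, so an effect of the row and one of genotype cannot be told apart. Plk2 itself was well above background on all 3 wild-type arrays and on no null array. It was at least 149.8-fold lower in null samples, a bound set by the detection limit. The fitted Plk2 difference of -9.32 (limma, adjusted p = 3.61e-06) rests on null values below that limit. The position of the Plk2 probe against the deletion is not known, so these values check the labels only in part.

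RefSeq promoter windows on the GRCm38.p6 build, from 250 bases before to 50 bases after the gene's start, were found for 7 of the 10 genes and not for Btn1a1, Xdh and Muc15. Those of Fabp3, Cel and Plin2 are shown because these are the genes with a window whose null and wild-type samples did not overlap. They lie at chr4:130308488-130308787 on the plus strand (Fabp3), chr2:28563354-28563653 on the minus strand (Cel) and chr4:86670010-86670309 on the minus strand (Plin2), and each is written 5′ to 3′ along its gene. Capitals mark matches on either strand to AGGAA (the core bound by Ets factors such as Elf5), AGGTCA (a nuclear receptor half-site) and CACGTG (an E-box); no 2 matches overlapped.
Fabp3: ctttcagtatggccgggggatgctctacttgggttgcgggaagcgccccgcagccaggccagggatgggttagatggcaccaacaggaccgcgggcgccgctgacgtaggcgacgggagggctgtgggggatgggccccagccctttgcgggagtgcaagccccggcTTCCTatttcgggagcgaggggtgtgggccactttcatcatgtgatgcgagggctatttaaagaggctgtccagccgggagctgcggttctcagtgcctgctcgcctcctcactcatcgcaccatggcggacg
Cel: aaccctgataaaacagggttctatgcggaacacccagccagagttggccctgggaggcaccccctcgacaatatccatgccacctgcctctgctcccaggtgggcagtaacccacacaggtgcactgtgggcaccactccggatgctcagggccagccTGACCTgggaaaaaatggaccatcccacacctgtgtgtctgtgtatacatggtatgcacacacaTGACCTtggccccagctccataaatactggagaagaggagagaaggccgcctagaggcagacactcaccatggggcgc
Plin2: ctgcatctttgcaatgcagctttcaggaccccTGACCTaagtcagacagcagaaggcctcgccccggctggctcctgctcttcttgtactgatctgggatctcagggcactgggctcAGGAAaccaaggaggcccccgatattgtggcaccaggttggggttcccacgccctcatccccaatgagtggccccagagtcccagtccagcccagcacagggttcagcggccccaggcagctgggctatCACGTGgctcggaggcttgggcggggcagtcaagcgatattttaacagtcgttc
The window of Fabp3 holds 1 match, to AGGAA, 83 bases before the start. That of Cel holds 2 matches to AGGTCA, 92 and 28 bases before the start, and that of Plin2 holds AGGTCA 218, AGGAA 133 and CACGTG 4 bases before it. Over the 7 windows, AGGAA was found in 5, AGGTCA in 2 (Cel and Plin2) and CACGTG in 1 (Plin2). The shares of all 32851 promoter windows were 66.7%, 16.3% and 7.15%. The letters TTCNNNGAA, the site form bound by Stat5, were in 0 of the 7 windows and in 8.30% of all windows. A match is a run of letters and no measured site.

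The inner coat of the secreted droplet was measured by Plin2, which binds the surface of cytoplasmic lipid droplets. Plin2 stood at 4.43, 4.91 and 4.90 in wild-type samples 1 to 3 and at 5.34, 5.57 and 5.05 in null samples 1 to 3. The groups did not overlap, with null sample 3 closest to the wild-type samples. The difference was 0.58 (SE 0.21, 95% interval 0.07 to 1.08), or 1.49-fold, which did not pass the adjusted threshold (limma, adjusted p = 0.174). With null sample 3 left out it was 0.71 (limma, adjusted p = 0.117).

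Butyrophilin and xanthine oxidoreductase, the pair that joins the droplet to the apical membrane, showed small differences. Btn1a1 was at 3.54, 3.39 and 3.45 in wild type and at 3.48, 3.41 and 3.87 in null samples. Null samples 1 and 2 lay among the wild-type values and null sample 3 lay above them. The difference was 0.12 (SE 0.17, 95% interval -0.28 to 0.53; limma, adjusted p = 0.693), and without null sample 3 it was -0.02. Xdh was at 2.38, 2.11 and 2.18 in wild type and at 2.50, 2.35 and 2.35 in null samples, groups that overlapped through wild-type sample 1. Its difference was 0.18 (SE 0.15, 95% interval -0.17 to 0.53; limma, adjusted p = 0.497), and 0.20 without null sample 3. For both genes the upper end of the interval corresponds to a 1.44-fold higher level.

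Mfge8 encodes lactadherin, which binds phosphatidylserine on the globule surface and integrins on other cells. Mfge8 was at 9.46, 9.88 and 9.73 in wild type and at 9.40, 9.37 and 9.89 in null samples. Its probe had processed signals of 181043 to 239439 in wild-type and 186604 to 228470 in null samples, and no spot was saturated. Null samples 1 and 2 lay below the wild-type values and null sample 3 above them. The difference was -0.14 (SE 0.21, 95% interval -0.63 to 0.36; limma, adjusted p = 0.718), the only negative one of the 10. It was -0.31 without null sample 3 and between -0.25 and -0.04 with any other sample left out, and it was 0.15 where arrays were scaled on spike-in controls. That scaling moved the median over all entries from 0.03 to 0.31, and relative to that median Mfge8 stood at -0.17 under both scalings.

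Muc15 and Muc1 are the membrane-bound mucins of the globule. Muc15 had levels of -1.86, -1.84 and -0.83 in wild type and of 0.74, 1.48 and 0.05 in null samples. In processed signal this was 69.4 to 159 in wild-type and 249 to 787 in null samples. The groups did not overlap, and the nearest samples were wild-type sample 3 and null sample 3. The difference of 2.27 (SE 0.43, 95% interval 1.23 to 3.30) was the largest of the 10 and corresponds to 4.81-fold, but it did not pass the adjusted threshold (limma, adjusted p = 0.0677). Without null sample 3 it was 2.62 and passed (limma, adjusted p = 0.0406), where 2.86% of all entries passed.

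Muc1 was dimmer, at -3.39, -2.94 and -2.60 in wild type and at -2.38, -2.40 and -2.65 in null samples. Null sample 3 lay inside the wild-type range and the other null samples above it. The difference was 0.50 (SE 0.23, 95% interval -0.04 to 1.05; limma, adjusted p = 0.245), and 0.59 without null sample 3. The Muc1 probe had processed signals of only 24.5 to 58.8 over the 6 arrays.

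**Figure D1:**
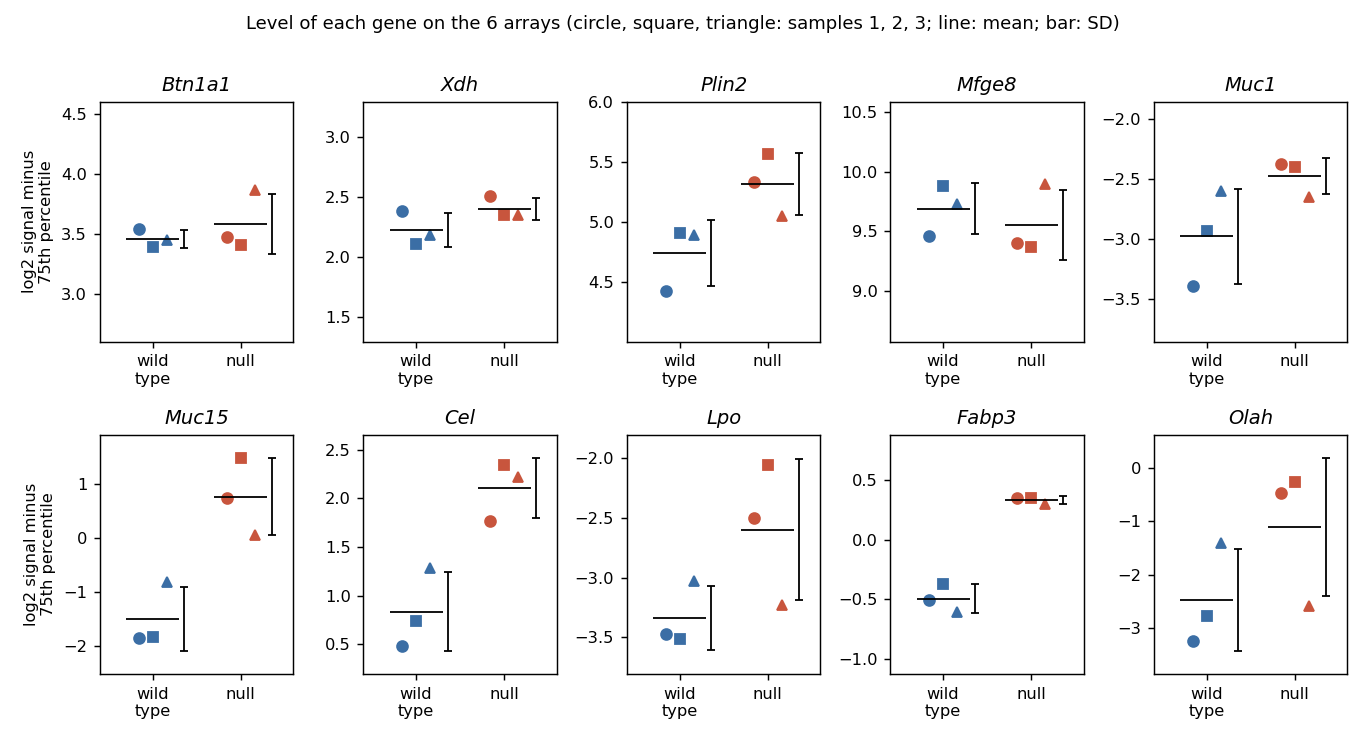
Level of each of the 10 genes (log2 processed signal minus the array's 75th percentile, 1 panel and 1 vertical axis per gene) in 3 wild-type (blue) and 3 null (red) samples; marker shapes give samples 1 to 3, lines the mean and bars the SD. Null samples lie above all wild-type samples for Plin2, Muc15, Cel and Fabp3, while null sample 3 (triangle) lies inside the wild-type range for Muc1, Lpo and Olah.

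Fabp3, the heart-type fatty acid binding protein that is also abundant in lactating mammary cells, had the smallest p of the 10 and the tightest null group. Its brighter probe was at -0.50, -0.37 and -0.61 in wild type and at 0.35, 0.35 and 0.29 in null samples. The null samples lay within a narrow band above all wild-type samples. The difference was 0.82 (SE 0.14, 95% interval 0.50 to 1.15), or 1.77-fold, just short of the adjusted threshold (limma, adjusted p = 0.0547). Without null sample 3 it was 0.84 and passed (limma, adjusted p = 0.0480).

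The other Fabp3 probe is a separate measurement of the same transcripts on the same arrays, not a further replicate. It read -1.05, -1.02 and -1.02 in wild type and -0.26, -0.31 and -0.32 in null samples, again with no overlap. With every probe kept as its own row, the difference was 0.74 (SE 0.13; limma, adjusted p = 0.0556), beside 0.82 for the brighter probe (adjusted p = 0.0529), where 0.558% of all probes passed. The authors' deposited table gives folds of null over wild type of 1.54 for the brighter and 1.57 for the other probe, with unadjusted p-values of 0.000514 and 1.10e-05. Both passed that table's thresholds (p under 0.01 and fold over 1.4), as 921 of its 62976 rows did, and no probe of the other 9 genes passed. In the authors' deposited table the fold was 3.39 for Muc15 and 2.27 for Cel, with unadjusted p-values of 0.0175 and 0.0134.

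Olah, which sets the chain length of fatty acids in milk, had the widest spread. It was at -3.25, -2.78 and -1.40 in wild type and at -0.46, -0.26 and -2.60 in null samples. Null samples 1 and 2 lay above all wild-type samples, and null sample 3 lay between wild-type samples 2 and 3. The difference was 1.37 (SE 0.73, 95% interval -0.38 to 3.12; limma, adjusted p = 0.310), and without null sample 3 it was 2.11 (limma, adjusted p = 0.0945).

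The secreted lipase Cel hydrolyses milk triglyceride in the gut of the young once bile salts are present. Cel was at 0.48, 0.74 and 1.28 in wild type and at 1.76, 2.35 and 2.22 in null samples. All null samples lay above all wild-type samples, wild-type sample 3 being the nearest to them. The difference was 1.27 (SE 0.26, 95% interval 0.65 to 1.90), or 2.42-fold, and did not pass the adjusted threshold (limma, adjusted p = 0.0747). It was 1.22 without null sample 3 (limma, adjusted p = 0.0889). Lpo, an antibacterial heme peroxidase, was at -3.47, -3.51 and -3.03 in wild type and at -2.50, -2.06 and -3.23 in null samples. Null sample 3 lay inside the wild-type range. The difference for Lpo was 0.74 (SE 0.32, 95% interval -0.01 to 1.49; limma, adjusted p = 0.223), and 1.06 without null sample 3 (limma, adjusted p = 0.0710).

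**Figure D2:**
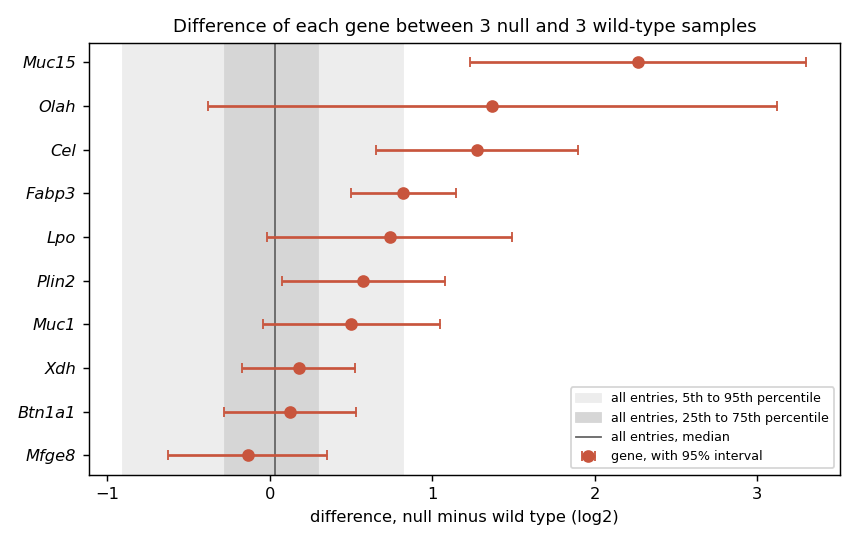
Difference of each gene between 3 null and 3 wild-type samples (horizontal axis, log2; points, with the 95% interval of the limma fit as bars), ordered by size. Shading spans the 5th to 95th and 25th to 75th percentiles of all 24609 entries (-0.90 to 0.82 and -0.27 to 0.29) and the line is their median of 0.03; the intervals of Muc15, Cel, Fabp3 and Plin2 lie above 0.

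The genes thus differed in how they varied across samples. In null sample 1, 8 of the 10 genes lay above the whole wild-type range (35.3% of all entries), in null sample 2, 7 did (39.7%), and in null sample 3, 6 did (39.6%). The median deviation of the 10 genes from their wild-type means was -0.27, -0.08 and 0.23 in wild-type samples 1 to 3 and 0.72, 0.83 and 0.32 in null samples 1 to 3. The null medians were all higher than the wild-type medians, and null sample 3 lay closest to wild-type sample 3. Leaving out null sample 3, 7 of the 10 genes had both remaining null samples above every wild-type sample, as 26.7% of all entries did, and 6 had an unadjusted p under 0.05, as 25.2% of all entries did. Leaving out wild-type sample 3 gave 7 such genes (19.2% of all entries), and leaving out any of the other 4 samples gave 3 or 4 (14.6% to 21.8%).

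Under 20 alternatives of processing and left-out samples, Muc15 ranged from 1.71 to 2.62, Cel from 1.10 to 1.56 and Fabp3 from 0.61 to 1.11. Each of these 3 differences kept an unadjusted p under 0.05 in all 20, and passed the adjusted threshold in 7, 5 and 6 of them. Their highest adjusted p-values over the alternatives were 0.207, 0.222 and 0.169 (limma). The number of all entries past the adjusted threshold, 139 as reported, ranged from 7 to 1374 over the same alternatives. The 3 genes passed only in settings where more entries passed than as reported. Plin2 ranged from 0.42 to 0.86 and had an unadjusted p under 0.05 in 16. Olah ranged from 0.76 to 2.11, Lpo from 0.24 to 1.06 and Muc1 from 0.12 to 0.78, and they had an unadjusted p under 0.05 in 3, 8 and 2. These 3 genes, and also Muc15 and Fabp3, were lowest under the other background correction (normexp of the median signal). The highest values of Cel, Fabp3, Plin2 and Muc1 came from spike-in scaling, which moved the median over all entries from 0.03 to 0.31. Plin2, Olah, Lpo, Muc1, Xdh, Btn1a1 and Mfge8 passed the adjusted threshold in 0 of the 20.

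**Figure D3:**
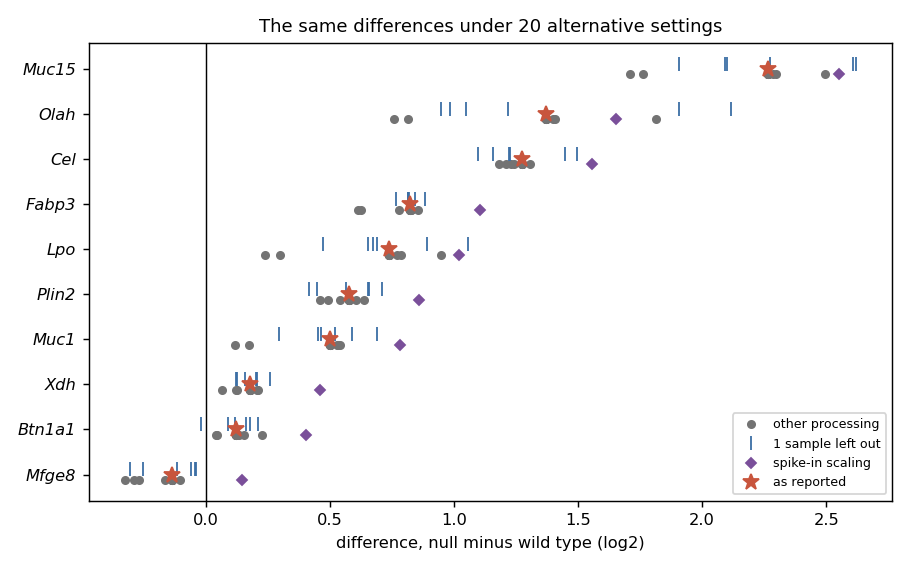
The difference of each gene (horizontal axis, null minus wild type, log2) as reported (star), under other processing (grey points), with 1 sample left out (blue ticks) and with spike-in scaling (purple diamonds). All values of Muc15, Cel, Fabp3, Plin2, Olah, Lpo, Muc1 and Xdh lie above 0. Those of Btn1a1 and Mfge8 lie on both sides of 0, with Btn1a1 positive in 19 of 20 alternatives and Mfge8 in 1 (spike-in scaling).

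Caseins and whey proteins, the main proteins secreted beside the globule, split between null samples. Csn2 (beta-casein), Csn3 (kappa-casein) and Wap (whey acidic protein) were well above background on 0 of 3 wild-type and 2 of 3 null arrays, and so fell outside the test. Csn2 read -5.13, -6.61 and -7.08 in wild type and 2.58, 3.65 and -6.54 in null samples, so that null sample 3 lay within the wild-type range. The mean of the 3 null samples was at least 23.1-fold higher than the wild-type detection limit, a bound that rests on null samples 1 and 2. Of the 8 tested genes of this list, 3 were higher at an unadjusted p under 0.05 (Csn1s1 by 5.94, SE 1.81; Csn1s2b by 1.76, SE 0.64; Wfdc18 by 0.58, SE 0.16) and 2 lower (Ltf and Glycam1), with 0 past the adjusted threshold in limma. For this list and all lists below, the shares of all entries at that unadjusted threshold were 13.5% higher and 9.54% lower. Csn1s1 read -1.82, -5.37 and -2.48 in wild type and 4.16, 5.33 and -1.33 in null samples, null sample 3 being near wild-type sample 1. Of the wild-type arrays, 2 of 3 had Csn1s1 well above background, so its difference includes a value that is only a bound. Csn1s1 passed without null sample 3 (7.96; limma, adjusted p = 0.0302). Csn1s2b in null sample 3 (-2.89) lay inside the wild-type range of -3.20 to -2.86. Ltf, lactoferrin, had a difference of -2.08 (SE 0.64; limma, adjusted p = 0.134) and Glycam1, a milk mucin, one of -6.08 (SE 2.53; limma, adjusted p = 0.215). Glycam1 was well above background on 2 of 3 null arrays, so its difference includes a value that is only a bound. Glycam1 levels were 4.96, 4.51 and 5.21 in wild type and -0.09, -7.29 and 3.80 in null samples. Csn1s2b, Ltf and Glycam1 were picked out after their values were seen.

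The other genes of cytoplasmic lipid droplets were centred near 0. Of 15 genes for droplet coats and turnover, 9 had a positive difference, the median was 0.03, and 2 were higher at an unadjusted p under 0.05 while 0 were lower. Over all entries 13.5% were higher and 9.54% lower. Those 2, Plin5 and Plin3, also encode perilipins. The perilipin genes Plin1 (0.28, SE 0.24) and Plin4 (-0.10, SE 0.19), picked out after their values were seen, had overlapping groups. Plin5 stood at -1.40, -1.28 and -1.29 in wild type and -0.55, -0.41 and -0.64 in null samples, a difference of 0.79 (SE 0.14; limma, adjusted p = 0.0593). The Plin5 difference was 0.84 without null sample 3 (limma, adjusted p = 0.0443). Plin3 differed by 0.47 (SE 0.14; limma, adjusted p = 0.131), and both genes had no overlap between groups.

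Genes for lipid uptake and synthesis, which supply the globule's core, had a median difference of -0.01 over 22. At an unadjusted p under 0.05, 1 was higher (Slc27a3, a fatty acid transporter family member, by 0.51, SE 0.19) and 3 lower (Scd2, Dgat1 and Me1, at -0.83, -0.56 and -0.66). Of all entries, 13.5% were higher and 9.54% lower at that threshold. Slc27a3 and Me1 were picked out after their values were seen. Among 7 regulators of lipogenesis the median was -0.12, and only Mlxipl, which encodes a glucose-responsive activator of lipogenic genes, had an unadjusted p under 0.05 (0.66, SE 0.27; limma, adjusted p = 0.210), while Insig1, which restrains sterol-driven lipogenesis, had a difference of -0.47 (SE 0.21). Leaving out null sample 3, Mlxipl differed by 0.96 (limma, adjusted p = 0.0403).

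Relatives of single globule proteins varied from family to family. Among 4 tested fatty acid binding protein genes besides Fabp3 the median was 0.37. Fabp5 had a difference of 0.78 (SE 0.21; limma, adjusted p = 0.108), while Fabp4, the adipocyte form, had overlapping groups and a difference of 0.35 (SE 0.31; limma, adjusted p = 0.533), or 0.14 without null sample 3. Of 4 membrane mucins besides Muc1 and Muc15, Muc20 had a difference of 0.59 (SE 0.22; limma, adjusted p = 0.182) and Muc13 of -1.44 (SE 0.56; limma, adjusted p = 0.195). Of 5 lactadherin relatives and receptors, 3 were lower at an unadjusted p under 0.05: Itgb3 at -0.76, F8 at -0.63 and Itgav at -0.50. Itgb3 and Itgav encode an integrin pair that binds lactadherin, and Itgav was picked out after its value was seen. Among 8 partners of Xdh in purine breakdown and cofactor supply the median was -0.04, and Mocs2, an enzyme of the molybdenum cofactor that Xdh needs, was higher by 0.40 (SE 0.14; limma, adjusted p = 0.159). Among 4 heme peroxidases related to Lpo and 3 relatives of Btn1a1, 0 had an unadjusted p under 0.05.

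Regulators of alveolar differentiation, which include known inducers of milk genes, had a median of -0.21 over 12 genes. Elf5, an Ets factor of alveolar cells, stood at 2.82, 3.02 and 3.61 in wild type and at 4.72, 5.33 and 4.52 in null samples. Its groups did not overlap, and the difference was 1.71 (SE 0.29; limma, adjusted p = 0.0571), or 1.88 without null sample 3 (limma, adjusted p = 0.0452). Of the 12 genes, 4 were lower at an unadjusted p under 0.05: Stat5a (-1.003, SE 0.23; limma, adjusted p = 0.0866), Jak2 (-0.78), Prlr (-0.94) and Stat5b (-0.37). Stat5a and Stat5b encode transcription factors that act downstream of the prolactin receptor Prlr and its kinase Jak2, while Cish and Socs2, 2 further genes of that signalling route, had differences of 0.34 (SE 0.25) and 0.14 (SE 0.15). Jak2, Prlr, Stat5b, Cish and Socs2 were picked out after their values were seen. Of 9 milk solute transporters 1, the glucose transporter Slc2a1, had an unadjusted p under 0.05, at -0.55 (SE 0.17; limma, adjusted p = 0.137), and the ion transporter Slc12a2 had a difference of -1.02 (SE 0.47; limma, adjusted p = 0.254).

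**Figure D4:**
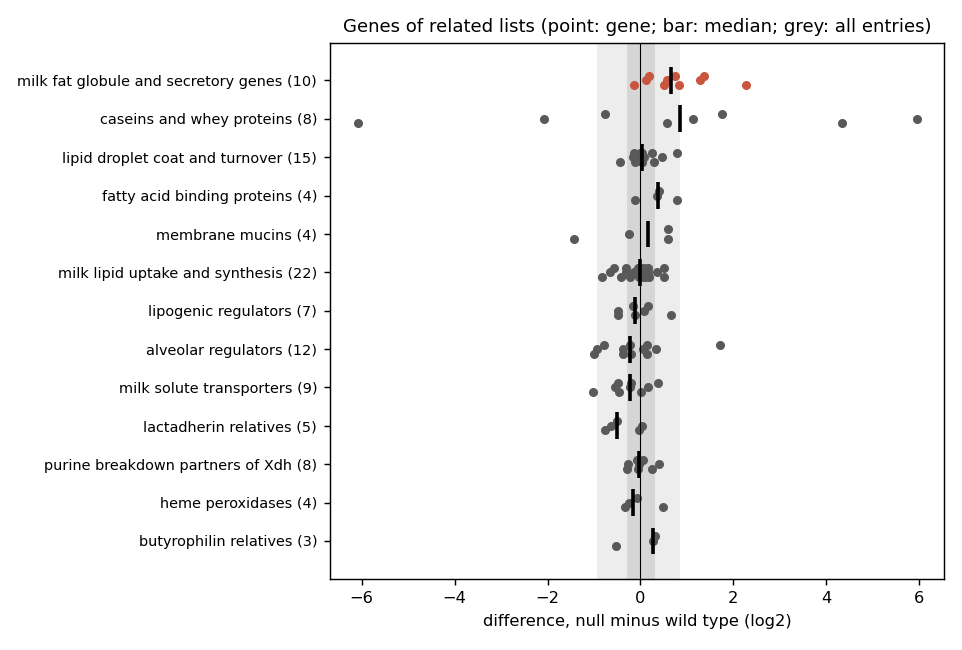
Difference of each tested gene (horizontal axis, null minus wild type, log2) in the 10 globule and secretory genes (red) and in related lists (grey points), with the median of each list as a black bar; the number of tested genes is in brackets and shading gives the percentiles of all entries. The median is 0.66 for the 10 genes, 0.86 for caseins and whey proteins with a spread of -6.08 to 5.94, and between -0.50 and 0.37 for the other lists.

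Markers of some of the cell types that a dissociated gland can hold also differed between the groups, though 0 passed the adjusted threshold in limma. Their part in the values above was not tested. In these bulk samples, fewer cells of a type and less RNA per cell cannot be told apart. Luminal epithelial markers had a median difference of -0.08 over 12 genes, with Krt8 at 8.25, 8.01 and 8.08 in wild type and at 7.83, 7.94 and 8.29 in null samples, so the labelled epithelial cells carried this keratin on every array. At an unadjusted p under 0.05, 2 luminal markers were lower (Aldh1a3, -1.59, and Cldn4, -0.71) and 1 was higher (Cldn7, 0.34, picked out after its value was seen). Basal epithelial markers had a median of 0.51 over 10, 9 of them positive, with Oxtr higher by 1.39 (SE 0.28; limma, adjusted p = 0.0723), Acta2 by 0.65 (SE 0.22; limma, adjusted p = 0.153) and Krt14 by 0.92 (SE 0.33; limma, adjusted p = 0.175). The summed level of the basal markers, in units of each array's 75th percentile, was 308.6 to 540.3 in wild-type and 597.3 to 732.2 in null samples. Its low end is wild-type sample 1 alone, with wild-type samples 2 and 3 at 514.0 and 540.3. All 14 lymphocyte markers were lower at an unadjusted p under 0.05, with a median of -2.48 and Cd79b at -2.49 (SE 0.43; limma, adjusted p = 0.0585). Every lymphocyte marker was well above background on some array, and their summed level was 27.0 to 45.4 in wild-type and 6.83 to 13.5 in null samples. Of 10 fibroblast markers 10 had a negative difference (median -0.54), with a summed level of 1890 to 2172 in wild-type and 1292 to 1758 in null samples.

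Adipocytes also express Plin2 and Fabp3 relatives, and 11 adipocyte markers had a median of 0.24. Their summed level was 300.1 to 397.6 in wild-type and 291.7 to 487.7 in null samples, ranges that overlapped, and Lep was well above background on 0 arrays. As a sum of linear levels it rests mostly on Fabp4, the brightest of these markers. Fabp4 was at 7.49, 8.19 and 8.35 in wild type and at 8.38, 7.91 and 8.77 in null samples. Skeletal muscle, in which Fabp3 is abundant, had 10 tested markers with a median of -0.16, a summed level of 2.43 to 3.37 in wild-type and 2.34 to 2.98 in null samples, and Ckm and Mylpf above background on 0 arrays. Myeloid markers had a median of -0.50 over 13, with summed levels of 153.7 to 213.8 in wild-type and 145.6 to 167.9 in null samples. Endothelial markers had a median of -0.34 over 10. All 10 tested cell division genes were higher at an unadjusted p under 0.05, with a median of 2.34; their list had a summed level of 9.59 to 14.7 in wild-type and 35.4 to 115.7 in null samples.

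**Figure D5:**
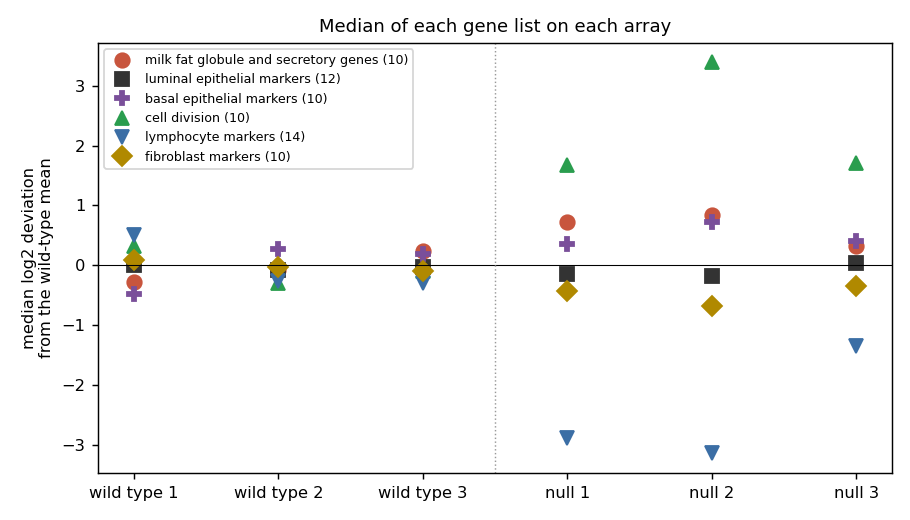
Median deviation from the wild-type mean (vertical axis, log2) of the 10 globule and secretory genes and of 5 other gene lists on each of the 6 arrays (horizontal axis); the number of genes is in brackets. The 10 genes are at 0.72, 0.83 and 0.32 in null samples 1 to 3, while lymphocyte markers lie at -2.89, -3.14 and -1.35 and cell division genes at 1.67, 3.39 and 1.71.

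The named genes whose levels ran most like those of Muc15 over the 6 arrays were Epb41l4b (Pearson r = 0.999), Tyro3 (0.997) and Prodh (0.997). For Cel they were Slc39a11 (0.996), Ecrg4 (0.995) and Nxf2 (0.994), and for Fabp3 they were Dnajc7 (0.998), Arhgef16 (0.998) and Hap1 (0.996). Closest to the mean of the 10 genes were Pld6 (0.996), Cenpj (0.996), Dbil5 (0.994), Fat2 (0.994) and Tsen54 (0.994). With 6 arrays in 2 groups and 24609 entries to choose from, these are descriptions of the arrays, and they share the difference between genotypes.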

How the data were processed

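Each of 6 samples was read on 1 array of Agilent design 028005, annotated on mm9, with Feature Extraction 11.0.1.1 under protocol GE1_1100_Jul11, per the file headers. Trizol-extracted RNA was amplified and carried Cy3, per the labels' protocols. The processed intensity is a linear, background-corrected spot signal, not normalized between arrays, per the file headers. The authors also deposited a table of quantile-normalized intensities holding, per row, a p-value without adjustment, a wild-type over null ratio and a signed fold (a score); how it was made is not given in these sources.

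Here log2 processed signals were centred on each array's 75th percentile over gene spots, leaving out control spots and 1119 outlier spots. Probe accessions, without version, were matched to a RefSeq gene table (GRCm38.p6, used for names only): 26582 of 55681 probes matched, for 20145 genes. A probe was kept where at least 3 of 6 arrays had it well above background, and the highest-mean probe stood for its gene. The test was limma's lmFit and eBayes (limma 3.58.1, R 4.3.3), Benjamini-Hochberg adjusted over 24609 entries; the steps were tested on simulated data. Where a probe was above background on no array of a group, a bound replaced the fold: the brighter group's mean against, per array, the higher of the probe's own level and the lowest level well above background. The number of arrays limits the precision.

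The names are all 10 genes, Plk2, genes drawn from the 2 of each list with the smallest p (not all of which are named) and from a few fixed lineage and milk genes, and the entries most correlated with the 10; others are said to be picked after their values were seen. The genes, lists, motifs and tests were chosen with earlier results of these data known. Alternatives were normexp background correction of the median signal (which changes the input signal too), scaling, filters, probe choice, moderation, weighted arrays, a block for the replicate number, left-out samples, kept outlier spots and the deposited table's values.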

Additional observations from a re-analysis of the deposited data

How the results depend on the processing

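All 20 alternatives could be fitted; the slide column equals the replicate number, so it gave no separate block. Of the 10 genes, 0 passed the adjusted threshold in limma as reported, where 139 of all entries did (0.565%). The number was 3 with normexp background correction (offset 50) of the median signal in place of the processed signal (1209 of all entries). It was also 3 with trend and robust moderation (847 of all entries), with array weights (1374) and with the deposited table's values (770). It was 2 with probes above background on all 6 arrays (380 of the entries kept), and 1 with median centring (340) and with spike-in scaling (375). With 1 sample left out it was 0 to 2, with 2 (Muc15 and Fabp3) only without null sample 3 (704 of all entries, 2.86%). Every setting in which any of the 10 genes passed also had more entries passing than the 139 as reported. The number with an unadjusted p under 0.05 was 4 (23% of all entries), and 3 to 7 with 1 sample left out (14.6% to 25.2% of all entries). The median over the 10 genes was 0.66 as reported, 0.39 with normexp, 0.94 with spike-in scaling, 0.38 with the deposited table's values, and 0.47 to 0.78 with 1 sample left out. The median over all entries was 0.03 as reported, -0.005 with normexp, 0.31 with spike-in scaling and 0.009 with the deposited table's values.

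Of all entries, 139 passed as reported (56 higher, 83 lower), 1209 with normexp (689 and 520), 340 with median centring (176 and 164), 375 with spike-in scaling (250 and 125), 380 with the filter on all 6 arrays, 28 with a filter on at least 1 array, 31 with no filter, 847 with trend and robust moderation, 1374 with array weights and 770 with the deposited table's values (387 and 383). With 1 sample left out the number ranged from 7 to 704. Same-numbered samples lay in the same slide column, but their deviations did not run together, with correlations of -0.12, 0.04 and -0.02, so the numbers were not taken as pairs. With the replicate number as a block, 8 entries passed, 0 of the 10 genes among them. The causes of these changes were not tested. Muc1, Lpo and Olah had the dimmest probes of the 10 genes, with processed signals below 50 on at least 1 array of each group. Olah reached 236 on the array of null sample 2. Whether low signal limits the differences of these genes was not tested.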
